A study of Mus musculus with 4 samples.

Results

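The MHC class II genes described here are the 9 genes H2-Aa, H2-Ab1, H2-Eb1, H2-DMa, H2-DMb1, H2-Oa, H2-Ob, Cd74 and Ciita. They were chosen by symbol from the 30028 genes listed over the 4 libraries, and all 9 were listed in every library. Single-cell RNA-seq had been run on fresh mouse lung, digested with enzymes and depleted of red cells, with polyA RNA captured on Singleron GEXSCOPE microwell chips. There were 4 groups with 1 library each, and each library pooled cells of 5 mice aged 11 weeks. The wild-type libraries came from normoxia with vehicle (Normoxia-WT, NW) and from hypoxia combined with SU5416, which blocks the VEGF receptor and was given weekly 3 times (HySu-WT, HSW). The Fundc1 knockout libraries came from the same conditions (Normoxia-FUNDC1-KO, NK, and HySu-FUNDC1-KO, HSK), and Fundc1 encodes a receptor that marks mitochondria for mitophagy. The series title names endothelial deficiency, while the labels of the samples do not give the cells in which the gene was deleted, and no strain is given. Over all kept cells Fundc1 stood at 43.4 UMIs per 1000000 UMIs (CPM) [41.5, 45.2] in NW and 39.3 CPM in HSW, but at 0.938 CPM in NK and 0.167 CPM in HSK, so both knockout libraries matched their labels. With 1 library per group there is no replicate and no test: intervals in square brackets are exact 95% intervals that cover counting error only, and differences between libraries include any difference between preparations.

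MHC class II molecules present peptides from the endosomal pathway to CD4 T cells. In the mouse the A molecule is a pair of the chains encoded by H2-Aa and H2-Ab1, and H2-Eb1 encodes the beta chain of the E molecule. The invariant chain, encoded by Cd74, accompanies new class II molecules into endosomes and blocks their groove until proteases cut it down. The DM molecule (H2-DMa and H2-DMb1) then exchanges its last fragment for other peptides, and the DO molecule (H2-Oa and H2-Ob) inhibits DM, mainly in B cells and some dendritic cells. Ciita encodes the transactivator that binds no DNA by itself and joins the RFX, CREB and NF-Y factors on class II promoters; interferon gamma induces it in many cell types. Dendritic cells, B cells and some macrophages are the classical carriers, and alveolar type 2 (AT2) cells and capillary endothelium of the lung are known to carry class II as well. The alpha chain of the E molecule was listed only as the pseudogene H2-Ea-ps, with 1, 1, 1 and 0 UMIs over the kept cells of NW, NK, HSW and HSK. In strains that lack this chain, the product of H2-Eb1 has no partner at the cell surface.

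Of the 9 genes, 7 lie in one stretch of chromosome 17 (GRCm38): H2-Oa at chr17:34092340-34095234, H2-DMa at chr17:34119541-34139101, H2-DMb1 at chr17:34153072-34160230, H2-Ob at chr17:34238903-34254414, H2-Ab1 at chr17:34257689-34269419, H2-Aa at chr17:34282744-34287823 and H2-Eb1 at chr17:34305867-34316674. H2-Aa is on the minus strand and the other 6 are on the plus strand. Ciita lies at chr16:10480059-10528418 on the plus strand. Class II promoters are known for an X box followed by a Y box, and members that moved together across cell classes were compared there. Cd74 was left out of the coordinates and of this comparison. Among the other members, RefSeq promoter sequences (GRCm38.p6, 250 bases before to 50 after the start) were at hand for 6. On the gene's strand, 5 of them held GNAAC, from the X box, and then GATTGG, the Y box letters that read as the NF-Y motif CCAAT on the other strand, 24 to 27 bases later. The Y box letters started 44 to 62 bases before the RefSeq start. The pair, with a gap of 20 to 30 bases and searched on both strands, was in 214 of 32851 promoters of this length (0.651%), while GNAAC alone was in 84.8% and GATTGG alone in 16.1%. H2-DMb1 held the pair as well, and the window of H2-DMa held none. The stretches of an A chain, an E chain and both DO chains are shown 5′ to 3′ to set the narrowly distributed DO genes beside A and E chain genes, with the letters of both motifs in capitals: H2-Oa at chr17:34092293-34092348 (+), H2-Ob at chr17:34238808-34238860 (+), H2-Aa at chr17:34287859-34287914 (-) and H2-Eb1 at chr17:34305766-34305820 (+).
H2-Oa: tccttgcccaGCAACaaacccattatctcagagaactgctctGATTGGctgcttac
H2-Ob: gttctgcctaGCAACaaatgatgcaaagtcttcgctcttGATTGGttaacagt
H2-Aa: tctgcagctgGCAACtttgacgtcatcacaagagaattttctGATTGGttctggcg
H2-Eb1: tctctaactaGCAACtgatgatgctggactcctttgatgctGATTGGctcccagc
The same letters thus stood before DO genes and before A and E chain genes, whose levels by cell class, given next, were unlike.

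The libraries held 4128 to 9164 cells and 41308071 to 63501686 UMIs, and the median cell held 5355 (NK) to 7845.5 UMIs (HSK). Cells with markers of another lineage were removed as mixed, from 10.6% of cells in HSK to 25.7% in NK. Cells were clustered without any class II gene, and classes were named from marker genes that include no class II gene; each name below stands for cells that are like that type. A class level is the sum of UMIs over its cells in CPM of the class. A higher level can mean more RNA per cell or more cells with the RNA, which the summed value does not separate. Of 25728 distinct barcodes, 252 occurred in more than 1 library. Unless stated otherwise, 4 values in a row are in the order NW, NK, HSW and HSK.

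The A and E chains were highest in conventional dendritic cells and interstitial macrophages, and migratory dendritic cells, B cells and one group of monocytes followed. Summed over H2-Aa, H2-Ab1 and H2-Eb1, the mean over libraries and its range were 33103 CPM (29646 to 37007) in type 1 conventional dendritic cells, 28731 CPM (21104 to 36142) in interstitial macrophages and 28549.9 CPM (22431 to 37142) in type 2 conventional dendritic cells. These 3 ranges overlapped, so their order is not set by the libraries. Migratory dendritic cells, with 20 or more cells in NK alone, stood at 16670 CPM, B cells at 12159 CPM and monocytes with low classical markers at 8140.1 CPM. That last class gathers monocyte clusters whose classical markers were under 0.7 of the highest cluster; its A and E chains were far above those of the other classical monocytes, at 310.3 CPM. AT2 cells, at 1813 CPM (1680.0 to 1971), differed little between libraries, and vascular endothelium stood at 1542 CPM (1062 to 2052). Alveolar macrophages, at 1546 CPM (1264 to 1946), overlapped both. Secretory, fibroblast and ciliated cells were lowest, at 266, 264 and 226 CPM.

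**Figure D1:**
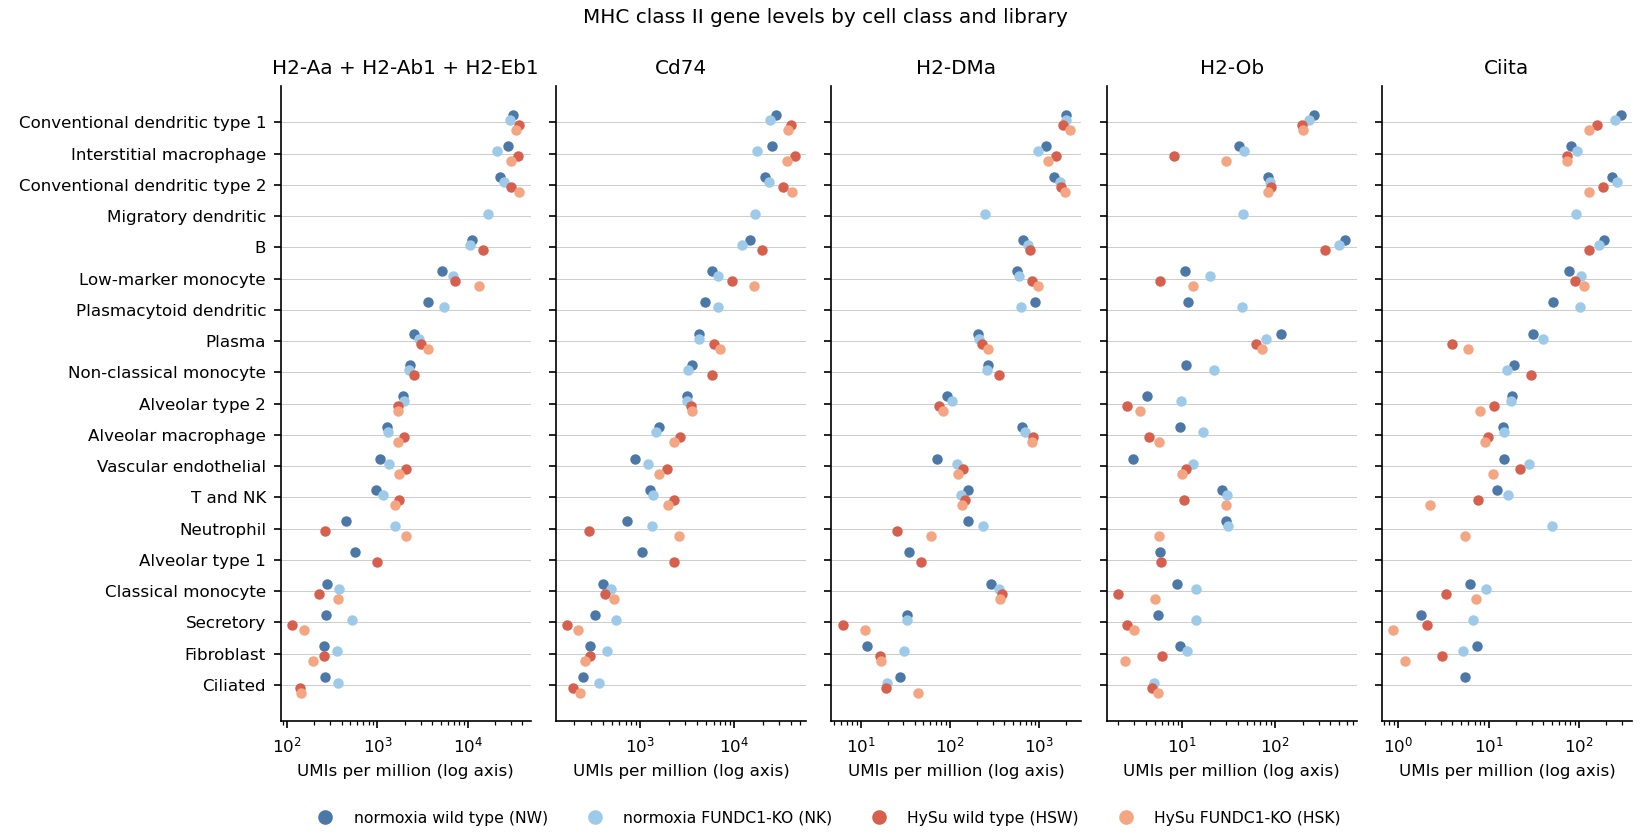
CPM of the class (log axes) for the members in each cell class, with 1 point per library; libraries at 0 or with fewer than 20 cells of a class are not drawn. The A and E chains of dendritic cells and interstitial macrophages lie above those of AT2 cells and endothelium, and classical monocytes are low in them (310.3 CPM).

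Among the single members, Cd74 followed the A and E chains, with 27617, 23857, 39794 and 36909.6 CPM in type 1 dendritic cells and 25061, 17433, 43521 and 36006 CPM in interstitial macrophages. Both DM chains were spread more evenly over leukocytes. H2-DMa stood at 1972, 2003, 1853 and 2204 CPM in type 1 dendritic cells, at 639, 693, 852 and 827 CPM in alveolar macrophages and at 287, 350.0, 379.7 and 360.1 CPM in classical monocytes. Classical monocytes were thus low in A and E chains but not in H2-DMa. The DO chains were the most narrowly distributed. H2-Ob was highest in B cells, with 580.4, 500.1 and 346 CPM in NW, NK and HSW, and reached 266, 238, 197 and 200.3 CPM in type 1 dendritic cells, while AT2 cells had 4.19, 9.61, 2.53 and 3.44 CPM. H2-Oa reached 224, 249 and 340.3 CPM in B cells of the same 3 libraries and 97.3, 80.1, 200.1 and 239 CPM in type 2 dendritic cells. Ciita was highest in conventional dendritic cells, at 287, 247, 157 and 129 CPM in type 1 and 229, 264, 184 and 129.6 CPM in type 2, and the order of these classes is not set by the libraries. AT2 cells held Ciita at 18.1, 17.6, 11.4 and 7.95 CPM and endothelium at 14.7, 27.9, 21.96 and 11.2 CPM. Both HySu libraries were below both normoxia libraries for Ciita in AT2 cells and in both dendritic classes.

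The mix of members differed between classes, and ratios of 2 members within a class show this without the total. In AT2 cells there were 1.63, 1.58, 2.05 and 2.09 UMIs of Cd74 per UMI of the A and E chains, while endothelium had 0.822, 0.898, 0.927 and 0.922. The lowest AT2 library was above the highest endothelial one, so the invariant chain made up more of the class II RNA in AT2 cells in every library. Alveolar type 1 cells also had a high ratio, 1.87 [1.45, 2.41] in NW and 2.30 [1.91, 2.77] in HSW. Leukocyte classes with more Cd74 than A and E chains included non-classical monocytes, with means of 4195 against 2340 CPM. Plasma cells had 5338 against 3025 CPM, so such a mix was not confined to alveolar epithelium. The ratio was higher in both HySu libraries than in both normoxia libraries in AT2 cells, in type 1 dendritic cells (0.863, 0.805, 1.08 and 1.09), in interstitial macrophages (0.900, 0.826, 1.20 and 1.21) and over all kept cells (1.11, 1.04, 1.30 and 1.34). The relation of both A chains moved the other way, and H2-Ab1 per H2-Aa was 0.658, 0.778, 0.587 and 0.574 in AT2 cells and 1.02, 1.11, 0.891 and 0.866 over all kept cells.

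**Figure D2:**
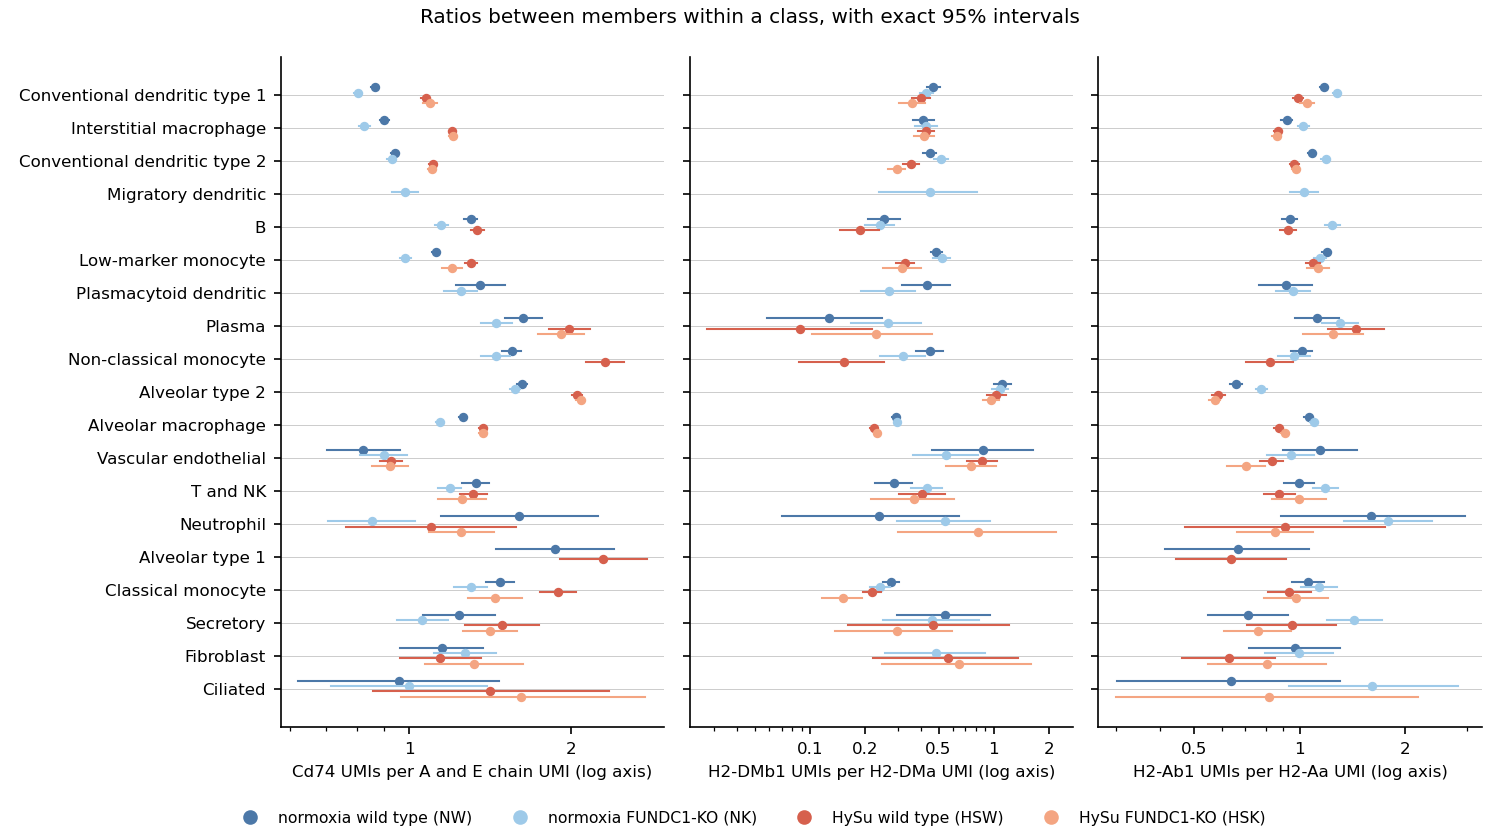
Ratios of the UMIs of 2 members within a cell class, with 1 point per library. AT2 cells have more Cd74 UMIs per A and E chain UMI (1.63, 1.58, 2.05 and 2.09) than endothelium (0.822, 0.898, 0.927 and 0.922) in every library.

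The balance of the DM chains set AT2 cells apart from macrophages. H2-DMb1 per H2-DMa was 1.11, 1.08, 1.03 and 0.965 in AT2 cells and 0.292, 0.299, 0.222 and 0.231 in alveolar macrophages, with B cells of NW, NK and HSW at 0.253, 0.239 and 0.186. H2-DMb1 has a near-identical neighbour, H2-DMb2, and reads of the pair may have been split unevenly in counting, so both DM beta values are uncertain. The share between them differed by class as counted: H2-DMb2 per H2-DMb1 was 4.45, 4.51 and 5.58 in those B cells and 0.0838, 0.127, 0.0396 and 0.0523 in AT2 cells. H2-DMa per H2-Aa was 1.23, 1.30, 0.995 and 1.167 in alveolar macrophages and 2.66, 2.44, 4.22 and 2.66 in classical monocytes, against 0.0941, 0.113, 0.0866 and 0.0940 in AT2 cells and 0.185, 0.214, 0.164 and 0.159 in endothelium. In B cells H2-Ob per H2-DMa, the DO beta chain against the molecule that DO inhibits, was 0.876, 0.674 and 0.446 in NW, NK and HSW.

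Class II UMIs also occurred in fibroblasts, which are not among the usual carriers, so the levels of the lung's own cells were set beside these. Fibroblasts held all members together at 586, 871, 582.4 and 482 CPM, against 5247, 5332, 5319 and 5360.4 CPM in AT2 cells and 2091, 2769, 4254 and 3538 CPM in endothelium. With each cell thinned to 4726 UMIs, Cd74 was found in 99.6, 100, 99.4 and 99.8% of AT2 cells, 66.7, 87.9, 97.2 and 91.7% of endothelial cells and 58.5, 82.4, 57.3 and 63.0% of fibroblasts; unthinned, with median UMIs per cell of 5586, 4562, 7018 and 7040.0, 5188, 4094, 5433 and 5956 and 4907, 4102, 5536 and 6064, the shares were 99.9, 99.2, 99.9 and 100%, 84.9, 86.9, 98.5 and 93.3% and 62.9, 76.2, 63.5 and 68.5%. Detection was thus higher in AT2 cells than in fibroblasts in every library, while the gap between endothelium and fibroblasts of NW and NK was smaller, above all in the thinned values, which rest on 30 and 33 endothelial cells there. The number of UMIs per cell separates them more: the median cell had 8, 8, 7 and 7 UMIs of the A and E chains among AT2 cells, 3, 7, 8 and 8 in endothelium and 1, 1, 0 and 1 in fibroblasts. At least 5 such UMIs were in 73.9, 78.8, 67.8 and 70.3% of AT2 cells, 30.0, 63.6, 72.6 and 65.8% of endothelial cells and 7.45, 4.71, 4.03 and 1.57% of fibroblasts. The 10% of AT2 cells with the most held 27.4, 26.9, 26.7 and 25.8% of their A and E chain UMIs. This share was 32.2, 34.4, 26.9 and 27.0% in endothelium and 19.6, 20.2, 20.8 and 23.7% in type 1 dendritic cells. A share this low was thus not particular to AT2 cells.

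RNA of leukocytes was present in every class, so cells with no UMI of 10 general leukocyte genes were taken alone. All members then stood at 4818, 5156, 5495 and 4998 CPM in 91, 144, 189 and 168 AT2 cells, 4245, 3214, 3833 and 4962 CPM in 4, 10, 30 and 9 endothelial cells and 402, 563, 459.7 and 383 CPM in 12, 27, 28 and 22 fibroblasts. In AT2 cells the level without leukocyte UMIs lay close to that of the whole class. Endothelial cells without them stayed above the fibroblasts in every library, although only HSW had 20 or more of them. In whole classes the 10 leukocyte genes summed to 527, 588, 279 and 333 CPM in AT2 cells, 628, 789, 507 and 543 CPM in endothelium and 647, 672, 392 and 389 CPM in fibroblasts, and none of the 10 was at 0 in any of these libraries. Markers of dendritic cells and interstitial macrophages summed to 369, 361, 248 and 229.5 CPM, 271, 299, 261 and 312 CPM and 511, 409.8, 701 and 595 CPM in the same 3 classes. Those of B cells (7 genes) summed to 69.5, 90.2, 45.9 and 47.7 CPM, 44.2, 139.7, 69.4 and 73.7 CPM and 86.4, 152, 81.0 and 50.1 CPM, with Pax5 at 0 in endothelium and fibroblasts of HSK and no other marker of the list at 0. The sums of these lists were at least as high in fibroblasts as in AT2 cells in every library, while the class II level of fibroblasts was lower. The sums need not be RNA of leukocytes alone. In smooth muscle and pericytes of NW and HSK the B cell list stood at 229 and 228 CPM, with 5 of its 7 genes at 0 and Ebf1 not among those 5. The part of leukocyte RNA in the class II levels was not tested.

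**Figure D3:**
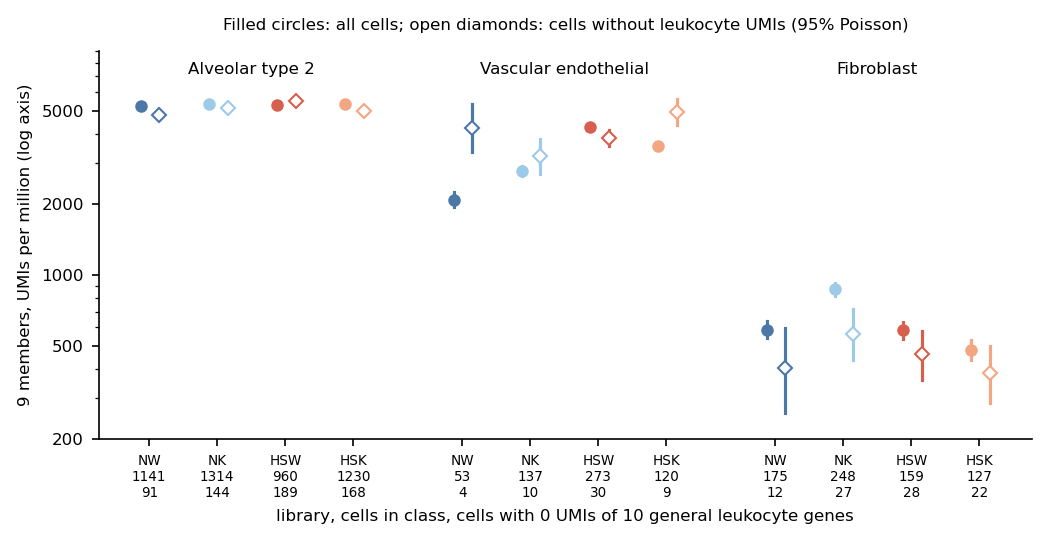
CPM of all members together for all cells of a class and for its cells with no UMI of 10 general leukocyte genes, by library. AT2 cells without leukocyte UMIs stand at 4818, 5156, 5495 and 4998 CPM, and fibroblasts at 402, 563, 459.7 and 383 CPM.

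AT2 cells are the surfactant-making cells of the alveolus, and their summed class II level was nearly the same in the 4 libraries. All members together stood at 5247 CPM [5193, 5301] in NW, 5332 CPM [5276, 5387] in NK, 5319 CPM [5266, 5373] in HSW and 5360.4 CPM [5313, 5408] in HSK, from 1141, 1314, 960 and 1230 cells. The ratio was 1.01 [0.999, 1.03] for HSW against NW, 1.02 [1.00, 1.03] for NK against NW, 1.01 [0.994, 1.02] for HSK against HSW and 1.01 [0.992, 1.02] for HSK against NK; the 4 pairs share libraries and are not independent. The sum hides members that stood on opposite sides. Cd74 was at 3113 CPM [3072, 3155] in NW, 3107 CPM [3065, 3149.9] in NK, 3464 CPM [3421, 3508] in HSW and 3504 CPM [3466, 3543] in HSK, higher in both HySu libraries, with a ratio of 1.11 [1.09, 1.13] in HSW relative to NW and 1.13 [1.11, 1.15] in HSK relative to NK. H2-Ab1 was at 639 CPM [619.9, 658] in NW, 728 CPM [708, 749] in NK, 511 CPM [495, 528] in HSW and 507 CPM [492, 521] in HSK, lower in both HySu libraries, with ratios of 0.801 [0.766, 0.837] and 0.696 [0.668, 0.724]. H2-Aa was at 970.4 CPM [947, 994] in NW, 936 CPM [913, 959] in NK, 871 CPM [849, 893] in HSW and 883 CPM [864, 903] in HSK, with ratios of 0.897 [0.867, 0.929] and 0.944 [0.913, 0.976]. H2-Eb1 stayed within 290.0 to 308 CPM over the 4 libraries. Since Cd74 holds most of the UMIs, its higher value and the lower A chains nearly cancel in the sum.

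The DM and DO chains and the transactivator of AT2 cells were also lower under HySu. H2-DMa was at 91.3, 106, 75.4 and 83.0 CPM and H2-DMb1 at 102, 115, 77.9 and 80.1 CPM, with ratios for HSW against NW of 0.825 [0.734, 0.927] and 0.766 [0.684, 0.857]. Ciita was at 18.1 CPM [15.0, 21.5] in NW, 17.6 CPM [14.5, 21.0] in NK, 11.4 CPM [9.03, 14.1] in HSW and 7.95 CPM [6.24, 9.98] in HSK, with 0.629 [0.470, 0.839] in HSW relative to NW and 0.453 [0.334, 0.611] in HSK relative to NK. HSK was also below HSW in Ciita, with a ratio of 0.699 [0.503, 0.970], and that of NK against NW was 0.972 [0.749, 1.26]. The DO chains were near the floor, with 22, 32, 14 and 14 UMIs of H2-Oa and 29, 64, 18 and 32 UMIs of H2-Ob in all. H2-Ob was highest in NK, at 2.29 [1.46, 3.69] times NW, and the B cell list was highest there as well, at 90.2 CPM; its part in the result was not tested.

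Counted by member, 3 of 9 were at least 1.5-fold lower in HSW than in NW (H2-Oa, H2-Ob and Ciita) and 0 were higher, while 39.2% of all genes tested were lower and 3.24% higher. For HSK against NK the same 3 members were lower and 0 higher, beside 51.4% and 5.31% of all genes. For NK against NW, 2 of 9 were higher (H2-Oa and H2-Ob) beside 9.05% of all genes, and 0 lower beside 4.81%. For HSK against HSW 0 were higher and 0 lower, beside 5.44% and 5.04%. The typical gene of AT2 cells was itself lower under HySu: the median log2 ratio over all genes was -0.47 when HSW was set against NW and -0.60 when HSK was set against NK, and over the members it was -0.32 and -0.52. Relative to that shift the summed members were higher, and with scaling factors that centre most genes (TMM) their ratios became 1.38 and 1.51. The share of lower members is therefore near or below the background, and for Ciita the log2 ratios of -0.67 and -1.14 stand beside these medians.

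**Figure D4:**
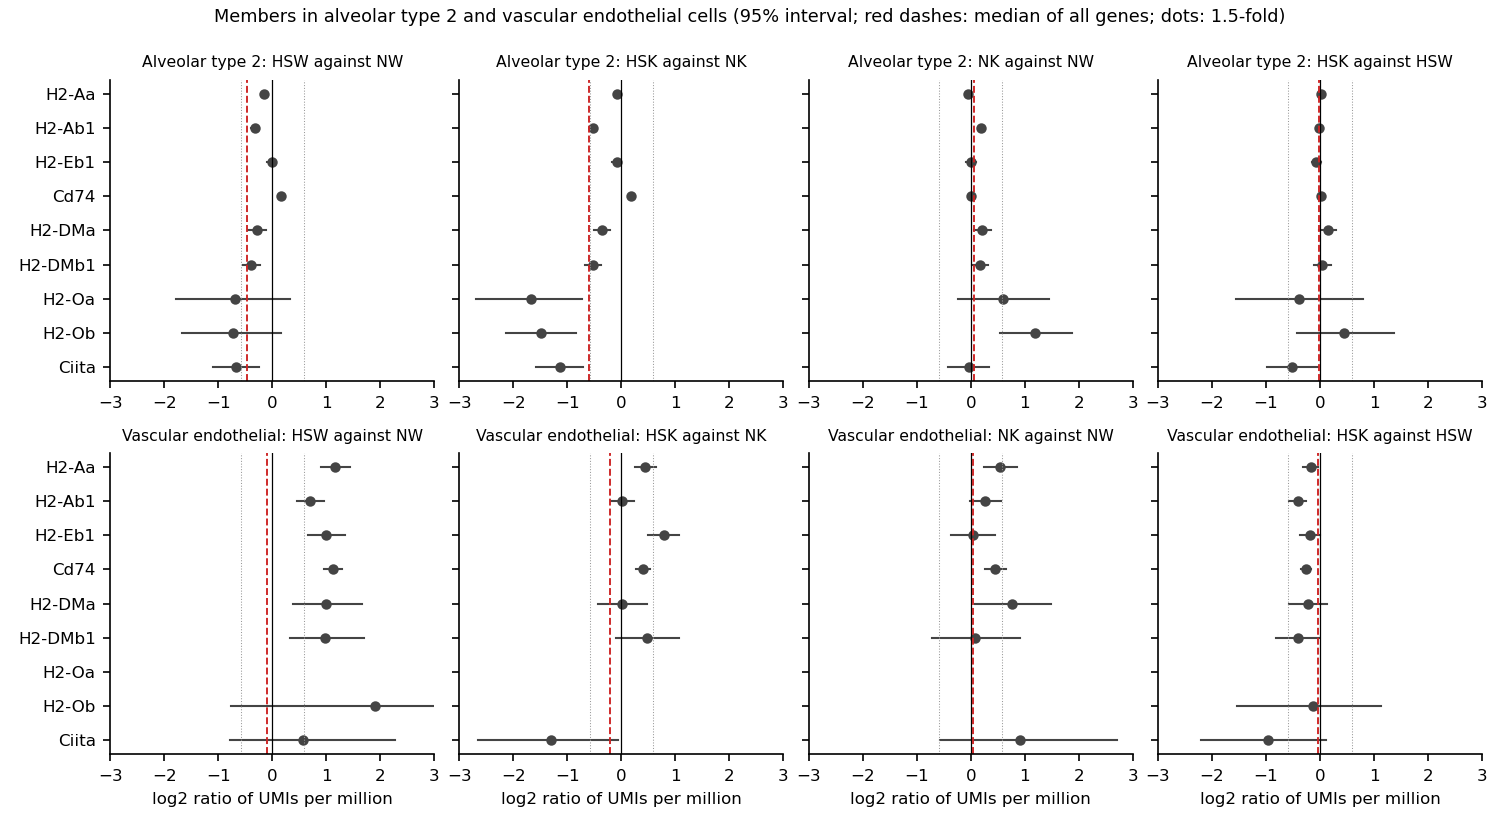
The log2 ratio of each member between 2 libraries in AT2 cells and endothelium (dots) with its exact 95% counting interval (lines, not drawn beyond 3 in either direction). In AT2 cells Cd74 lies above 0 and the A chains below for HSW against NW; in endothelium all members that reached 20 UMIs in that pair lie above 0. Red dashes mark the median of all genes and dotted lines 1.5-fold.

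Vascular endothelium lines the vessels and capillaries, and its class II level was lowest in NW and highest in HSW. All members together stood at 2091 CPM [1940.2, 2251] in NW, 2769 CPM [2638, 2904] in NK, 4254 CPM [4157, 4352] in HSW and 3538 CPM [3409, 3671] in HSK, from 53, 137, 273 and 120 cells. The ratio was 2.03 [1.88, 2.20] for HSW against NW, 1.28 [1.20, 1.36] for HSK against NK, 1.32 [1.21, 1.45] for NK against NW and 0.832 [0.796, 0.869] for HSK against HSW. Without removal of mixed cells the first became 1.20 and NK against NW turned to 0.776. Here and below, values without removal use classes of a first clustering, named with no limit on markers of a second lineage. An endothelial cluster there, with 116 NW cells, had general leukocyte genes at 0.554 of the highest cluster. Among endothelial cells without leukocyte UMIs the levels were 4245, 3214, 3833 and 4962 CPM, from 4, 10, 30 and 9 cells. NW was not the lowest and HSW not the highest library there. The low value of NW thus depends on which cells are counted as endothelium. H2-Aa was at 383 CPM [320.4, 455] in NW, 560.3 CPM [502, 623] in NK, 859 CPM [816, 904] in HSW and 762 CPM [702, 824] in HSK, and the intervals of NW and NK lie below those of HSW and HSK. Cd74 followed the same order with 873, 1198, 1902 and 1584 CPM, and H2-Ab1 was at 439, 529, 715 and 536 CPM. H2-Eb1 was at 239, 245, 479 and 421 CPM, and both HySu libraries stood above both normoxia libraries. Its ratio was 2.00 [1.59, 2.55] in HSW relative to NW and 1.72 [1.41, 2.10] in HSK relative to NK.

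Of the marker lists of endothelium, the leukocyte list was lower in HSW than in NW, at 507 and 628 CPM, the list of dendritic and interstitial cells stood at 261 and 271 CPM, and the B cell list was higher, at 69.4 and 44.2 CPM. The B cell list was lowest in NW, as class II was, and highest in NK; its part was not tested. The DM chains of endothelium were lowest in NW, with 70.8, 119.9, 141 and 121 CPM for H2-DMa and 61.9, 65.7, 121 and 91.1 CPM for H2-DMb1. Ciita did not follow the A and E chains there: it was at 14.7, 27.9, 21.96 and 11.2 CPM from 5, 17, 38 and 9 UMIs, and HSK was lowest. Its ratio for HSK against NK was 0.402 [0.158, 0.954], while that for HSW against NW was 1.49 [0.585, 4.85]. H2-Oa and H2-Ob had at most 19 UMIs in a library. Of 8 members that reached 20 UMIs in the pair, 7 were at least 1.5-fold higher in HSW than in NW and 0 lower, beside 17.6% and 19.9% of all genes; Ciita was just inside the fold, and H2-Ob was past it with 1 UMI in NW. The median log2 ratio was 1.00 over these members and -0.09 over all genes. For HSK against NK, 1 of 7 was higher (H2-Eb1) and 1 lower (Ciita), beside 14.1% and 28.6% of all genes. For NK against NW, 2 of 7 were higher (H2-DMa and Ciita) and 0 lower, beside 18.2% and 12.8%. For HSK against HSW, 0 of 8 were higher and 1 lower (Ciita), beside 7.33% and 12.3%.

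The kinds of endothelial cell differed between libraries, and so did their class II levels. General capillary cells made up 20.8, 43.1, 58.6 and 47.5% of the class, aerocytes, the gas-exchange capillary cells, 34.0, 30.7, 25.3 and 27.5%, venous cells 30.2, 16.8, 10.6 and 19.2% and arterial cells 15.1, 9.49, 5.49 and 5.83%. All members together were at 3065, 3884, 5249 and 4319 CPM in general capillary cells, 1576, 2193, 3388 and 2796 CPM in aerocytes and 2654, 2216, 2794 and 3461 CPM in venous cells. General capillary cells were the highest of the 3 in every library. Aerocytes and general capillary cells had the same order of libraries as the whole class, while venous cells were highest in HSK. The NW values rest on 11, 18 and 16 cells, so no ratio of a single kind is given against them. HSK against HSW was 0.823 [0.777, 0.871] in general capillary cells, 0.825 [0.751, 0.906] in aerocytes and 1.24 [1.10, 1.40] in venous cells. HSK against NK was 1.11 [1.03, 1.21], 1.28 [1.12, 1.45] and 1.56 [1.34, 1.82] in the same order. With the 3 kinds weighted equally, a choice made after seeing the data, the levels were 2432, 2764, 3810.5 and 3525 CPM, and HSW against NW became 1.57, which rests on the same few NW cells.

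Summed over cells, macrophages had more class II RNA in both HySu libraries than in their normoxia counterparts. In alveolar macrophages, the resident phagocytes of the airspace, all members together were at 3719.8, 3732, 5689.9 and 5017 CPM, with 1.53 [1.51, 1.55] in HSW relative to NW and 1.34 [1.33, 1.36] in HSK relative to NK. H2-Eb1 had the highest ratio in both pairs, 1.81 [1.73, 1.90] and 1.76 [1.69, 1.84]. Cd74 came next with 1.68 [1.65, 1.70] and 1.55 [1.52, 1.57]. H2-DMb1 stayed near 1 with 1.02 [0.963, 1.07] and 0.923 [0.881, 0.968], and H2-Ob was lower with 0.458 [0.329, 0.628] and 0.330 [0.258, 0.418]. The B cell list of alveolar macrophages was lower in the same pairs, at 71.6, 101.0, 31.1 and 27.99 CPM; its part in the result was not tested. For HSW against NW, 3 of 9 members were higher and 1 lower past 1.5-fold, beside 5.40% and 18.2% of all genes. For HSK against NK, 2 were higher and 2 lower, beside 7.93% and 28.8%. The 10% of alveolar macrophages with the most held 56.3, 50.8, 59.2 and 67.0% of the A and E chain UMIs, a larger share than in AT2 cells. The median thinned alveolar macrophage had 2, 3, 2 and 2 of these UMIs, and 31.1, 34.7, 38.8 and 30.6% of thinned cells had at least 5. The higher sum under HySu was thus not seen in the median cell. Without the cycling cluster and the cluster with the most B cell markers, left out after seeing the data, the ratios became 1.36 and 1.13.

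Interstitial macrophages, which sit in the tissue around airways and vessels, held all members together at 54734 CPM [54169, 55303] in NW, 40083 CPM [39612, 40558] in NK, 81969.6 CPM [81369, 82574] in HSW and 67723 CPM [67133, 68316] in HSK. NK was the lowest and HSW the highest library. The ratio was 1.498 [1.48, 1.52] for HSW against NW, 1.69 [1.66, 1.71] for HSK against NK, 0.732 [0.721, 0.744] for NK against NW and 0.826 [0.817, 0.836] for HSK against HSW. Cd74 and H2-Eb1 led again, with 1.74 [1.71, 1.77] and 1.59 [1.54, 1.65] for HSW against NW, while H2-Ab1 was at 1.16 [1.13, 1.20]. Past 1.5-fold were 2 members higher and 2 lower (H2-Oa and H2-Ob) of 9, beside 10.1% and 39.6% of all genes. The B cell list was lower together with the DO chains, at 218 and 59.8 CPM in NW and HSW; its part was not tested.

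Monocytes split by class II level. Classical monocytes, the blood cells that enter inflamed tissue, held all members together at 1066, 1325, 1123 and 1335 CPM, and their A and E chains were at 274, 374, 226 and 367 CPM. Monocytes with low classical markers held 11822, 14589, 17914 and 30813 CPM, with every HySu library above its normoxia counterpart. In NW, NK and HSW a minority of cells carried most of this, since 10% of the cells held 60.3, 50.9 and 55.7% of the A and E chain UMIs. In HSK 10% of the cells held 32.9%, and 54% of thinned cells there had at least 20 of these UMIs. The median thinned cell had 3, 11.5, 2 and 25.5 of them. The summed ratio was 1.52 [1.49, 1.54] for HSW against NW, 2.11 [2.06, 2.16] for HSK against NK and 1.72 [1.68, 1.76] for HSK against HSW, where HSK had 50 cells. NK against NW was 1.23 [1.22, 1.253] and turned to 0.911 when class II genes were allowed in the clustering. For HSK against NK, 5 of 8 members were higher and 1 lower (H2-Ob), beside 12.1% and 44.3% of all genes, and H2-Eb1 had the highest ratio, 2.84 [2.63, 3.07]. Non-classical monocytes, the patrolling cells of the vessel wall, stood at 6265, 5798 and 8772 CPM in NW, NK and HSW, with 1.40 [1.34, 1.46] for HSW against NW, and 10% of these cells held 70.2, 71.3 and 56.5% of the A and E chain UMIs.

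**Figure D5:**
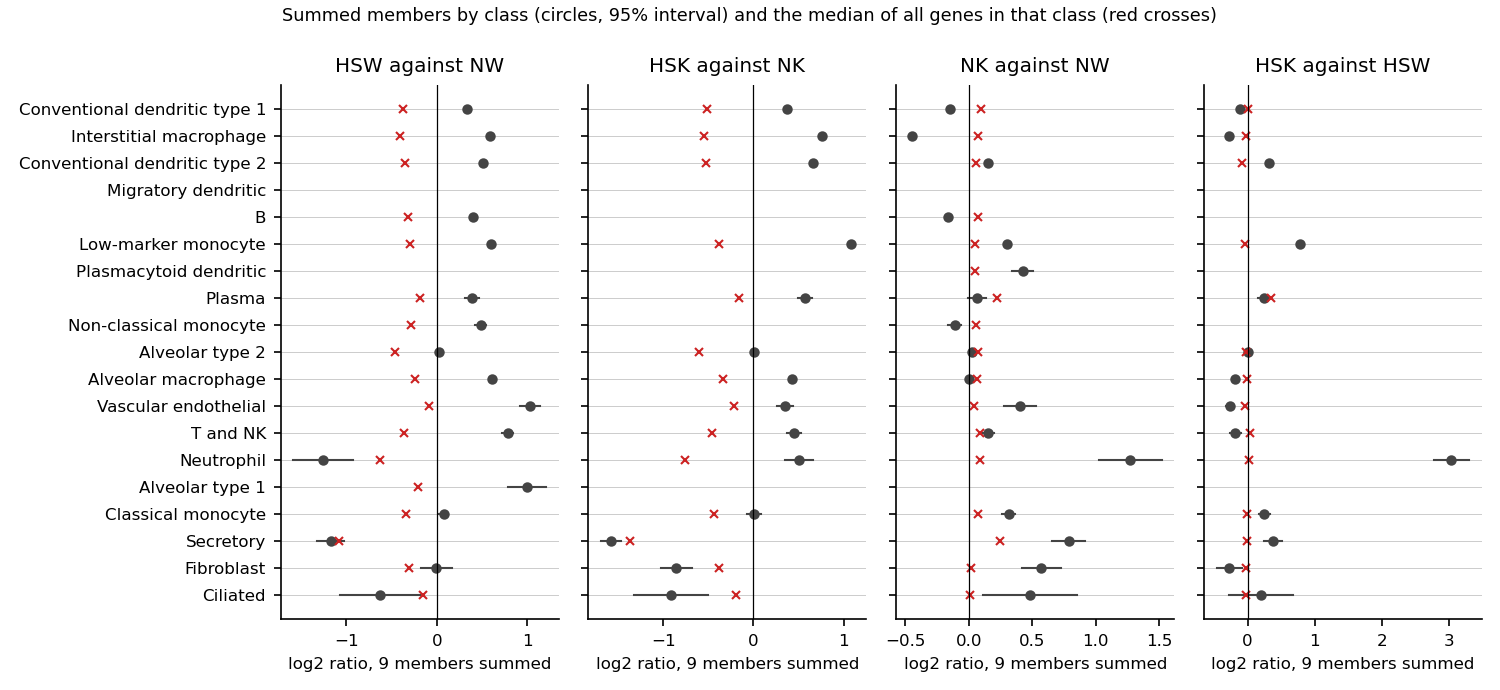
Ratio of all members together between 2 libraries in each class with at least 20 cells in both, with exact 95% counting intervals. AT2 cells lie at 1.01 to 1.02 in all 4 pairs, while endothelium, macrophages and dendritic cells lie above 1 for HSW against NW.

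Dendritic cells, which carry antigen to T cells, were among the highest classes in normoxia and were higher still under HySu. Type 1 conventional dendritic cells, the cross-presenting kind, held all members together at 63253, 57003, 79922 and 74035 CPM, with 1.26 [1.248, 1.28] in HSW relative to NW and 1.30 [1.28, 1.32] in HSK relative to NK. Cd74 (1.44 [1.42, 1.47]) and H2-Eb1 (1.42 [1.37, 1.47]) were higher in HSW than in NW, H2-Ab1 was at 1.00 [0.975, 1.03], and Ciita was lower at 0.547 [0.424, 0.6998]. The median ratio over the single members was 0.940 and 0.989 in these pairs, on the other side of 1 from the sum. Higher summed class II levels stood beside a lower level of the transactivator's RNA in the same cells. The typical gene of this class was itself lower under HySu. Its median log2 ratio was -0.37 between the wild-type libraries and -0.52 between the knockout libraries. The part of that shift in the lower Ciita was not tested. Type 2 conventional dendritic cells held 46047, 51167, 65352 and 81115 CPM, with 1.42 [1.40, 1.44] and 1.59 [1.57, 1.60]. For HSW against NW, 3 of 9 members were higher (H2-Eb1, H2-Oa and Cd74) and 0 lower, beside 7.93% and 36.5% of all genes. For HSK against NK, 4 were higher and 2 lower (H2-DMb1 and Ciita), beside 11.1% and 47.7%. A pair of clusters made up this class, and all members stood at 29803, 28900.0, 38649 and 37814 CPM in one and 82943, 81404, 115222 and 108891 CPM in the other. The type 2 markers of the lower cluster were at 0.416 of the highest cluster. At least 5 A and E chain UMIs were in 86.6, 87.1, 86.2 and 89.9% of thinned cells of the class, against 100% in type 1. Part of the class thus held little class II RNA. The higher cluster was 29.8, 35.3, 30.6 and 59.6% of the class. Within a cluster, HSK against HSW was 0.978 and 0.945, against 1.24 [1.23, 1.26] in the class as a whole, and HSW against NW was 1.30 and 1.39. HSK against NK was 1.31 and 1.34 within the clusters against 1.59 in the class, whose higher cluster was a larger share in HSK. NK against NW was 1.11 [1.10, 1.12] in the class and 0.970 and 0.981 within its clusters.

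B cells, plasma cells and plasmacytoid dendritic cells were counted in fewer cells. B cells held all members together at 27476, 24565 and 36269.6 CPM in NW, NK and HSW, with 1.32 [1.29, 1.35] for HSW against NW; HSK had 8 B cells and gave no ratio. H2-Eb1 (1.76 [1.66, 1.87]) and H2-Oa (1.52 [1.23, 1.88]) were the 2 members past 1.5-fold higher and H2-Ob (0.596 [0.500, 0.708]) the 1 lower of 9, beside 12.6% and 38.3% of all genes. The DO chains thus moved apart in B cells between these 2 libraries. Plasma cells, which have left the B cell program, were at 7145, 7467, 9369.8 and 11111 CPM. Plasmacytoid dendritic cells were at 9879 and 13262 CPM in NW and NK, with a ratio of 1.34 [1.27, 1.42] from 30 and 58 cells. The B cell list of this class was also higher in NK, at 219 and 529 CPM in NW and NK, as was the list of dendritic and interstitial cells, at 779 and 1069 CPM. The part of both lists was not tested. Without removal of mixed cells the ratio turned to 0.883, but from a class of other make-up. That class held 153 and 164 cells in NW and NK, and its leading genes included Siglech and Cd209a, a marker of type 2 dendritic cells.

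The remaining classes had low or uneven values. T and NK cells, which in mice are not known to make class II, held all members together at 2499, 2772, 4293 and 3776 CPM, but 75.0, 70.4, 89.5 and 82.0% of their A and E chain UMIs were in 10% of the cells. Their HSW against NW ratio was 1.72 [1.65, 1.79] and turned to 0.889 without removal of mixed cells. Neutrophils held 1388, 3350.3, 581 and 4761 CPM in 20, 29, 36 and 26 cells, and in HSK 10% of them held 87.6% of the A and E chain UMIs. Secretory cells of the airway held 671, 1159.8, 298 and 388 CPM, and 6 of 6 members were lower and 0 higher in HSW than in NW, beside 75.1% and 2.01% of all genes. The median log2 ratio over all genes of this class was -1.09, and with TMM factors the ratio of the summed members went from 0.444 to 0.952. Ciliated cells held 563, 786, 364 and 419 CPM, and fibroblasts, given above, had their highest level in NK. Alveolar type 1 cells held 1680.1 and 3350.4 CPM in NW and HSW from 25 and 20 cells; their ratio of 1.99 [1.73, 2.30] turned to 0.954 without removal of mixed cells.

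Over all kept cells Ciita was at 36.2, 35.6, 23.1 and 13.8 CPM and H2-Ob at 31.8, 37.7, 16.1 and 10.2 CPM, both lower under HySu, while Cd74 was at 3839, 3423, 5199.7 and 4340.0 CPM. Alveolar macrophages held Ciita at 14.6, 14.6, 9.84 and 9.14 CPM, and monocytes with low classical markers, at 77.4, 104, 90.7 and 114 CPM, had no such difference. These totals also follow which classes each library held, B cells being fewest in HSK.

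Counts of the transactivator's partners and other pathway genes in AT2 cells are read against the shares of all genes. These were 3.24% higher and 39.2% lower in HSW relative to NW, and 5.31% and 51.4% in HSK relative to NK. They were 9.05% and 4.81% in NK relative to NW, and 5.44% and 5.04% in HSK relative to HSW. Of the RFX, NF-Y and CREB genes, 4 of 7 with enough UMIs were lower and 0 higher in HSW than in NW, and 4 of 7 lower in HSK than in NK, beside 39.2% and 51.4% of all genes lower. These counts do not set the partners apart from other genes. Rfx5, an RFX subunit whose loss abolishes class II in humans, was at 11.3, 12.8, 5.75 and 6.98 CPM, with 0.510 [0.341, 0.754] for HSW against NW. Of the interferon gamma receptor and signalling genes, 4 of 7 were lower and 1 higher. Of the proteases and processing genes, 2 of 8 were lower, with Ctss, the cathepsin that trims the invariant chain in many cells, at 75.4, 118, 38.2 and 54.0 CPM. Ctss is also high in macrophages, where it stood at 4609 CPM in NW, and the leukocyte list of AT2 cells was lower in HSW than in NW as given above; its part was not tested. Of the turnover and costimulation genes 2 of 3 were lower, and of the repressors 1 of 2. No partner and no interferon gamma gene passed 1.5-fold for NK against NW or for HSK against HSW in AT2 cells, of 7 and 6 and of 7 and 7 measured.

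In endothelium the counts of the same lists are read against the shares of all genes, given above for each pair: 17.6% higher and 19.9% lower in HSW relative to NW, 14.1% and 28.6% in HSK relative to NK, 18.2% and 12.8% in NK relative to NW, and 7.33% and 12.3% in HSK relative to HSW. For HSW against NW, 2 of 7 partners were lower and 0 higher, with Nfyc the lowest at 0.457 [0.243, 0.901]. Of the interferon gamma genes 2 of 7 were higher, the kinase Jak2 (1.90 [0.875, 4.91]) and the feedback inhibitor Socs1 (1.96 [0.476, 17.3]). Irf1, a factor that acts on the Ciita gene downstream of interferon gamma, was at 112, 163, 167 and 129.8 CPM. Of the processing genes 4 of 8 were lower and 0 higher, Cd63 being the lowest at 0.424 [0.273, 0.671]. Turnover and costimulation genes had 1 higher of 2, and repressors 1 lower of 2. For HSK against NK, 1 partner was higher and 2 were lower of 7, and 3 of 6 interferon gamma genes were lower. For NK against NW, 3 of 6 interferon gamma genes were higher. For HSK against HSW the RFX subunits stood apart, with Rfxank at 2.58 [1.48, 4.52] and Rfx5 at 0.596 [0.235, 1.34]. Ifng, the gene of interferon gamma itself, was in T and NK cells at 137, 174, 145 and 77.1 CPM.

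Over 67 profiles, each a class in a library with at least 20 cells, from 19 classes, the members followed their own sum to different degrees. On log2(CPM + 1) values, Pearson's r with the sum was 1.00 for Cd74, 0.99 for H2-Aa, 0.99 for H2-Ab1 and 0.98 for H2-Eb1, which are themselves most of the sum. It was 0.88 for H2-DMb1, 0.88 for H2-DMa and 0.87 for Ciita, and 0.69 for H2-Ob and 0.68 for H2-Oa. The pathway genes listed for this report, other class II genes and processing genes among them, were left out of the ranking of other genes. Among the rest, the genes most like the sum were Slamf7 (0.78), Dnase1l3 (0.76), Rgs1 (0.74), Hepacam2 (0.74), Bcl2a1b (0.73), Plekho1 (0.73), Psmb8 (0.72), Tnip3 (0.72), Klrb1b (0.72) and Pkib (0.72). None of them came as close as Ciita or the DM chains, which are themselves parts of the sum. These are descriptions over profiles that share libraries, cells of origin and depth.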

How the data were processed

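Whole-number UMI counts per gene and cell were deposited by the authors, 1 matrix per library. The processing notes of the submitters list Scanpy, featureCounts 2.0.1, STAR 2.6.1a and cutadapt 1.17, with the builds GRCm38 and mm10. No cell in the deposited matrices was under 3775 (NW), 3182 (NK), 4230 (HSW) or 4726 (HSK) UMIs. From there, cells with under 200 genes or over 20% mitochondrial UMIs were removed, and cells were clustered in scanpy 1.11.5 (Python 3.11.15, numpy 2.4.6, scipy 1.17.1, pandas 2.3.3) on 2000 variable genes without class II genes, with 40 components, 20 neighbours and Leiden (leidenalg 0.10.2) at resolution 2.5, after a first clustering at 2. Scrublet (expected rate 0.06) called only 4, 1, 8 and 30 cells in NW, NK, HSW and HSK and did not work here, so mixed cells were removed by markers of another lineage: at least 3 UMIs and 0.15 of that lineage's own level (0.1 for general leukocyte genes). Clusters needed 3 markers at 20 CPM or more and under 0.1 of a second lineage to be named; 2.33 to 7.04% of kept cells stayed unnamed. UMIs were summed per class and library, with exact Poisson, conditional-binomial and binomial 95% intervals for levels, ratios and shares. Ratios needed 20 cells in both libraries, and a member or gene was counted past the fold of 1.5 with at least 20 UMIs in the pair. Thinning to 4726 UMIs per cell left out 1524, 2893, 480 and 0 kept cells of NW, NK, HSW and HSK. TMM factors came from edgeR 4.0.16 (R 4.3.3), and figures from matplotlib 3.10.9. The scripts were tested on simulated data. Named genes are the 9 members and a list of pathway genes: per list, the largest ratio in each direction and known direct partners. The 10 most alike genes were taken by Pearson's r among genes reaching 50 CPM that are neither members nor on the pathway lists. The values of 1 gene of the interferon gamma list are not reported here. The members and lists were chosen with earlier results of these data known, and the mixed-cell rule, the monocyte split, the naming thresholds and 3 alternatives after the data had been seen.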

Additional observations from a re-analysis of the deposited data

Results flagged for a closer look

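In several classes the knockout libraries differed from wild type in opposite directions in normoxia and under HySu, with intervals on opposite sides of 1; the differences were not tested, since each group is 1 library. In endothelium, all members together were at 1.32 [1.21, 1.45] for NK against NW and 0.832 [0.796, 0.869] for HSK against HSW. H2-Aa in endothelium was at 1.46 [1.19, 1.80] and 0.887 [0.806, 0.975] in the same pairs. Cd74 in endothelium was at 1.37 [1.20, 1.58] and 0.833 [0.780, 0.889]. The endothelial value of NW rests on 53 cells, and the first of these ratios turned without removal of mixed cells. In fibroblasts, all members together were at 1.49 [1.34, 1.65] and 0.827 [0.727, 0.941]. The B cell list of fibroblasts moved the same way, from 86.4 CPM in NW to 152 CPM in NK and from 81.0 CPM in HSW to 50.1 CPM in HSK; its part was not tested, and the second ratio became 1.00 without removal of mixed cells. In T and NK cells they were at 1.11 [1.07, 1.15] and 0.880 [0.832, 0.9299], and the first turned to 0.884 without removal of mixed cells. The contrast of HySu with normoxia went in opposite directions in neutrophils, with 0.419 [0.333, 0.525] in HSW relative to NW and 1.42 [1.27, 1.59] in HSK relative to NK, from 20, 29, 36 and 26 cells in NW, NK, HSW and HSK. These became 0.696 and 2.38 with TMM factors.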

How the results depend on the processing

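No paired analysis was possible because the labels give 1 library per group, and for the same reason no replicate could be left out. Totals without mitochondrial genes left all 62 ratios of the summed members within their counting interval. Scrublet alone and no removal both used the classes of the first clustering, named with no limit on markers of a second lineage. Under these 2 settings a class can hold other cells than in the main values. For AT2 cells, with ratios of 1.01 to 1.02 as reported, TMM gave 1.38 for HSW against NW, 0.964 for NK against NW, 1.06 for HSK against HSW and 1.51 for HSK against NK. Cells without leukocyte UMIs gave 1.14, 1.07, 0.910 and 0.969 in that order. Scrublet alone gave 0.972, 0.960 and 0.920 in AT2 cells for HSW against NW, HSK against HSW and HSK against NK, and no removal of mixed cells 0.971, 0.961 and 0.919. The median over members gave 0.801 for HSW against NW, 1.13 for NK against NW and 0.697 for HSK against NK; thinning gave 1.03 and 0.988 for the last 2, and cells above the highest library minimum 0.982 for the last. In endothelium, HSW against NW (2.03) became 1.20 with Scrublet alone, 1.20 with no removal, 2.45 in cells above the highest minimum, 2.35 thinned, 2.28 with TMM and 1.57 with subtypes weighted equally. NK against NW (1.32) became 0.776 with Scrublet alone and 0.776 with no removal, 1.92 above the highest minimum, 1.88 thinned and 1.14 with equal weights. HSK against HSW (0.832) became 0.925 with equal weights, and HSK against NK (1.28) 1.05 above the highest minimum, 1.06 thinned and 1.49 with TMM. With no UMI minimum, 4 endothelial members were higher for NK against NW (2 as reported), and 2 lower for HSK against HSW and 2 for HSK against NK (1 each). The share of all genes was not counted at that setting, so nothing about the members is read from these counts. In other classes 3 ratios that were past 1.5-fold turned to the other side of 1 with Scrublet alone and with no removal. They became 0.954 and 0.954 for HSW against NW in alveolar type 1 cells, 0.889 and 0.889 for the same pair in T and NK cells, and 1.09 and 1.09 for HSK against NK in ciliated cells. The cause was not tested. In all other classes 228 values moved past their counting interval and 198 did not. Ratios within 1.5-fold that crossed 1 are among the moved values, such as NK against NW in plasmacytoid dendritic cells and in T and NK cells. Depth limits Ciita, H2-Oa and H2-Ob in endothelium most, with at most 38 UMIs in a library.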

Other observations

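Among pathway genes that belong to no comparison above, the invariant chain protease Ctsl stood out in interstitial macrophages, at 158, 258, 857 and 5970.3 CPM in NW, NK, HSW and HSK. H2-DMb2, the second DM beta gene, was highest in B cells at 745, 799 and 807 CPM in NW, NK and HSW. H2-Eb2, a further E beta gene, was highest in migratory dendritic cells of NK at 431 CPM.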
